A study of Homo sapiens with 5 samples.

Results

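The UGT2B genes described here are UGT2B4, UGT2B7, UGT2B10, UGT2B11, UGT2B15, UGT2B17 and UGT2B28. They were taken by name, through their Ensembl IDs, and make up 7 of the 58812 gene IDs counted. C4-2B is a metastatic prostate cancer line that came from LNCaP cells and grows without androgen (castration-resistant). The study set parental C4-2B (2 libraries) beside mutant clones in which lysine 13 of the homeobox factor HOXB13, an acetylation site, is replaced by alanine (K13A): clone C4K13A (2 libraries) and clone C5K13A (1 library). All 5 libraries came from cells in the same C4-2B medium, with no drug or hormone arm in the labels, and each mutant group stands for a single clone. The question was which transcripts depend on that lysine.

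UDP-glucuronosyltransferases are enzymes of the endoplasmic reticulum that join glucuronic acid, taken from UDP-glucuronic acid, to small lipophilic molecules, which can then be exported and excreted. In the prostate, UGT2B15 and UGT2B17 conjugate testosterone, dihydrotestosterone and androstane metabolites, a step that ends their hormone action. Both transcripts are known to fall in LNCaP-type cells when androgen is added, and UGT2B17 is absent from the genome of many people. The family is best known from the liver and intestine, where UGT2B4 and UGT2B7 also act on bile acids and many drugs, and where UGT2B10 acts mainly on amines.

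The 7 genes form a cluster of 988.8 kb on chromosome 4 (GRCh38, GENCODE v29), between 68537184 and 69526014. In order of position they are UGT2B17 (68537184 to 68568527, minus strand, ENSG00000197888), UGT2B15 (68646630 to 68670628, minus, ENSG00000196620), UGT2B10 (68815993 to 68831196, plus, ENSG00000109181), UGT2B7 (69051363 to 69112987, plus, ENSG00000171234), UGT2B11 (69199951 to 69214731, minus, ENSG00000213759), UGT2B28 (69280499 to 69295050, plus, ENSG00000135226) and UGT2B4 (69480165 to 69526014, minus, ENSG00000156096). By gene start and end, UGT2B11 overlaps an antisense gene, AC111000.4, and whether their exons overlap was not checked. Since the strand setting of the counting is not given, reads in any overlapping exons could not be told apart. By the same measure UGT2B7 overlaps the pseudogene AC111000.2, and UGT2B4 the pseudogene UGT2A3P7, each on the same strand.

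Several members are near-identical copies, which limits how surely a read is given to one of them. The coding sequences of UGT2B15 and UGT2B17 were the same at 1538 of 1593 bases (96.5%), so that 55 bases differ. UGT2B11 and UGT2B28 were 97.0% identical, UGT2B10 and UGT2B11 94.8%, and the least alike pair, UGT2B15 and UGT2B28, 83.7%. Of all 100-base windows of the UGT2B15 or the UGT2B17 coding sequence, 16.9% also occurred in another member, against 4.09% for UGT2B11, 3.36% for UGT2B10, 0.738% for UGT2B28 and 0 for UGT2B7 and UGT2B4. With 50-base windows these shares were 36.5% for UGT2B17, 36.1% for UGT2B15, 27.8% for UGT2B11, 22.0% for UGT2B28, 21.6% for UGT2B10, 7.85% for UGT2B7 and 2.47% for UGT2B4. How reads that match several genes were handled is not given in the sources used here. To show how the copies can be told apart, the stretch with the most differences between UGT2B15 and UGT2B17 is printed because the counts of these enzymes carry most of the results. It covers coding positions 356 to 445 (counted from 1 at the start codon) in exon 1, at chr4:68670174-68670263 in UGT2B15 and chr4:68568040-68568129 in UGT2B17, both on the minus strand, and its 11 differing bases are in capitals.
UGT2B15: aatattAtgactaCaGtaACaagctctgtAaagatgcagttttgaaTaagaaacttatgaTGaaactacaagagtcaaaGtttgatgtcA
UGT2B17: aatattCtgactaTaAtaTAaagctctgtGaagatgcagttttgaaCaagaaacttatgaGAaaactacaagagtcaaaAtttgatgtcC

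By contrast, the longest run without a difference was 199 coding bases, positions 866 to 1064, spread over exons 2 to 4 of either gene. A read that lies wholly in this run cannot be given to UGT2B15 or UGT2B17 by its sequence.
UGT2B15 and UGT2B17: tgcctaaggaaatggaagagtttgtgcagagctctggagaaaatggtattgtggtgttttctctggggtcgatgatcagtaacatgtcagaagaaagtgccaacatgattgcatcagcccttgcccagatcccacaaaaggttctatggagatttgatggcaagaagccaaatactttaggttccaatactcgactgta

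Promoter sequence (RefSeq, GRCh38.p14, the 250 bases before the start) was given for 4 members: UGT2B15, UGT2B10, UGT2B7 and UGT2B11. Their A and T content was 67.2% to 71.6%, against a median of 42% over all promoters of that length. The UGT2B10 and UGT2B11 promoters were 90.2% identical, and UGT2B15 and UGT2B11 70.0%. Motifs were searched on both strands: the forkhead core TGTTTAC (in 2.98% of 35116 promoters) and a HOXB13-type core CNAATAAA (3.07%). The forkhead core occurred once in UGT2B15, on the reverse strand, with its first base at -183 relative to the start. Neither motif occurred in the other 3 members, and only exact matches were counted. Before the same taaaag, the other 3 windows hold ataaaca, which differs from the UGT2B15 match gtaaaca in its first base. A match is a description of the letters only, and no binding was measured here. The UGT2B15 window (chr4:68670653-68670902, minus strand) is printed with the match in capitals. For comparison the UGT2B11 window (chr4:69214749-69214998, minus strand), which held no exact match, is printed too.
UGT2B15: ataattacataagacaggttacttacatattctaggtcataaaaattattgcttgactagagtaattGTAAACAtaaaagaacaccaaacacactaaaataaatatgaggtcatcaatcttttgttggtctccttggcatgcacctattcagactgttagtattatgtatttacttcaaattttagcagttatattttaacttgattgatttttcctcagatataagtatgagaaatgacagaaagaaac
UGT2B11: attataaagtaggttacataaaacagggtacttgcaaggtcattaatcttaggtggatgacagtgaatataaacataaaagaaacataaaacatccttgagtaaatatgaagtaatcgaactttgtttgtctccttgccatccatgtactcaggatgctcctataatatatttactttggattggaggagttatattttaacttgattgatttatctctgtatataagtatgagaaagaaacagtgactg

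Libraries held 43190276 to 57282373 counts, with 27337 to 30647 genes detected. Levels are given in CPM, the count scaled to a common library total that includes the TMM factor, and at this depth 1 read is about 0.02 CPM. Separate cultures are not stated for the libraries of a group, so a p-value sets a difference against a spread that may be purely technical. Residual mitochondrial ribosomal RNA differed within groups, at 28.0 and 1760.2 CPM in the parental libraries, 63.1 and 364 CPM in clone C4K13A and 669 CPM in clone C5K13A. The summed level of 11 luminal prostate markers, KLK3 among them, was 5670 to 7450 CPM, and 4 of 4 basal markers stayed under 1 CPM in every library. HOXB13 itself, the mutated gene, was at 337.6 and 447.9 CPM in the parental libraries, 343.7 and 347.4 CPM in clone C4K13A and 351.6 CPM in clone C5K13A, and a gene count does not show the codon change.

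All members were low, and UGT2B15 and UGT2B17 held most of the family's reads. Over the 5 libraries UGT2B15 had 479 counts, UGT2B17 359, UGT2B28 55, UGT2B11 32, UGT2B10 6, UGT2B7 2 and UGT2B4 0. UGT2B15 and UGT2B17 together made up 77.1% and 86.5% of the family's counts in the parental libraries, all 22 counts and 52.9% in the C4K13A libraries and 95.4% in C5K13A. The second C4K13A share rests on 17 counts. Per kb of exon, the parental levels were 0.860 ± 0.323 CPM per kb for UGT2B15, 0.416 ± 0.0948 for UGT2B17, 0.205 ± 0.0434 for UGT2B28 and 0.0672 ± 0.0475 for UGT2B11 (SD, n = 2). In C5K13A, the per-length levels of UGT2B17 (2.96 CPM per kb) and UGT2B15 (2.94 CPM per kb) were nearly the same. Whether a lower level means fewer expressing cells or less RNA per cell cannot be told apart in these bulk samples.

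**Figure D1:**
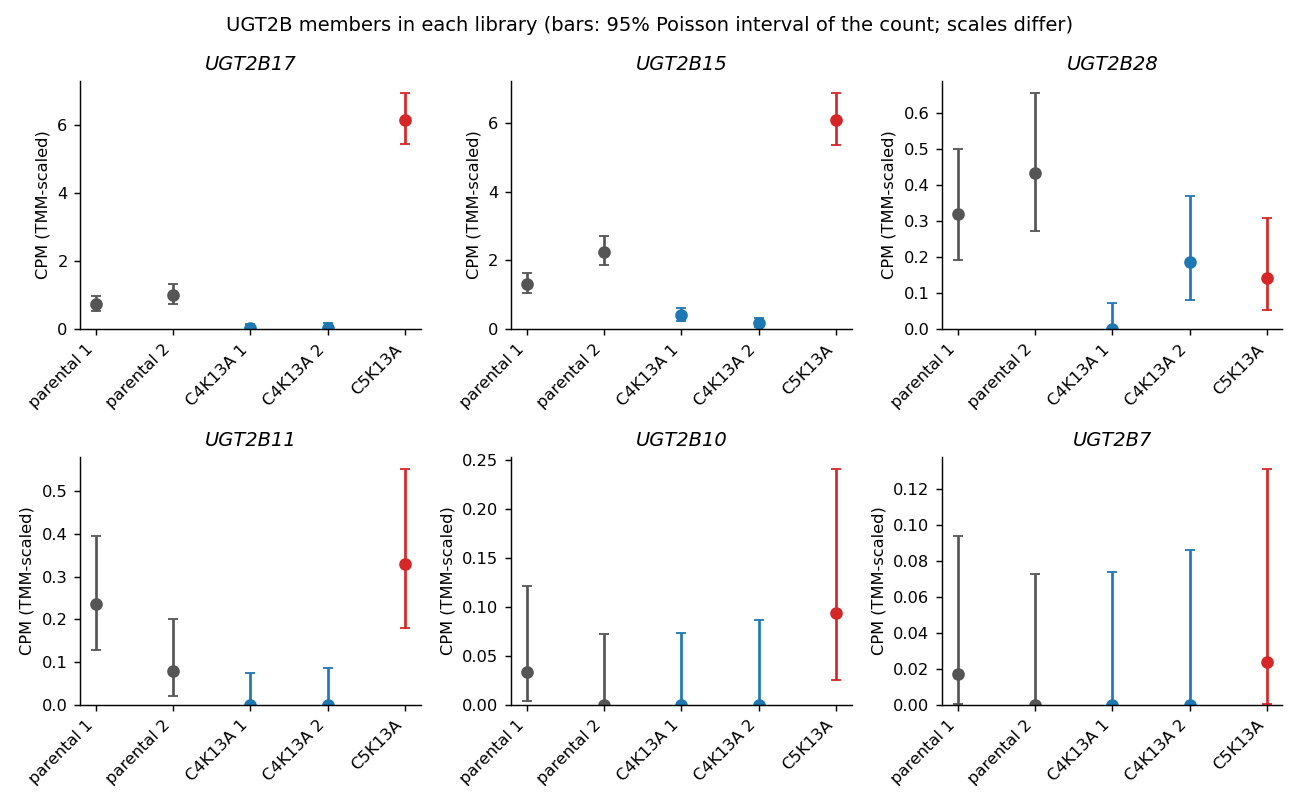
CPM (TMM-scaled) of 6 UGT2B genes in each library, with the exact 95% Poisson interval of the count as bars and a separate scale per gene; UGT2B4 had 0 counts throughout and is not drawn. UGT2B17 and UGT2B15 stand near 0 in both C4K13A libraries and at about 6 CPM in C5K13A (6.15 and 6.10 CPM).

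UGT2B17, the androgen-conjugating enzyme whose gene is often deleted in people, had opposite levels in the clones. It had 43 and 51 counts in parental cells, 2 and 2 in C4K13A and 261 in C5K13A. As CPM these were 0.724 and 1.003 in parental cells, 0.0399 and 0.0467 in C4K13A and 6.15 in C5K13A. C5K13A was thus above both parental libraries and both C4K13A libraries below them, with no overlap between the 3 groups. With so few libraries such an order can arise by chance, and its share over all genes was not counted. Of the pooled reads, parental cells had 19.8 times the C4K13A level (exact 95% interval 7.49 to 74.2), C5K13A had 7.21 times the parental level (5.67 to 9.23), and C5K13A had 142.9 times the C4K13A level (55.1 to 528). These intervals cover counting error only.

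In the test across all genes (edgeR's quasi-likelihood test, Benjamini-Hochberg adjustment over all genes tested, called at an adjusted p under 0.05), UGT2B17 was lower in C4K13A than in parental cells. The log2 fold change was -4.25 ± 0.55 (SE) with an adjusted p of 0.0197. It was the 1 member called there, of 4 that could be tested (UGT2B17, UGT2B15, UGT2B11 and UGT2B28, the other 3 members having too few counts), where 0.699% of all 22743 genes tested were called, 0.0967% as higher and 0.602% as lower. Without the C5K13A library the fold was the same and the adjusted p was 0.0610, in a fit with 1 group less and 20358 genes tested. C5K13A against parental gave a log2 fold change of 2.84 ± 0.45 with an adjusted p of 0.130 in edgeR's test. None of the 4 members tested was called in that comparison, 2 were at an unadjusted p under 0.05, and 0.0484% of all genes were called, 0.0176% as higher and 0.0308% as lower. The adjusted p for UGT2B17 was 0.0272 without parental library 2, 0.0157 or 0.0164 when C4K13A library 1 or 2 was left out, and 0.0034 in DESeq2, so that the call depends on the setting.

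The clones differed from each other by 7.08 ± 0.58 on the log2 scale for UGT2B17 (adjusted p = 0.0246 in edgeR's test), the smallest p-value of the 22743 genes in that comparison. This contrast is also the test of whether the clones' effects against the same parental libraries differ. It was the 1 member called of 4 tested, where 0.066% of all genes were called, 0.0396% as higher in C5K13A and 0.0264% as lower. The C5K13A value comes from 1 library, which the fit assumes to vary like the others.

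UGT2B15, which also conjugates dihydrotestosterone and its androstanediol metabolite, had the same order of levels with smaller gaps. Its counts were 78 and 115 in parental cells, 20 and 7 in C4K13A and 259 in C5K13A, or 1.31 and 2.26, 0.399 and 0.164, and 6.10 CPM. The groups did not overlap, and the share of all genes for which this holds was not counted here either. Pooled reads gave parental cells 6.03 times the C4K13A level (4.02 to 9.38), C5K13A 3.48 times the parental level (2.88 to 4.22) and C5K13A 21.0 times the C4K13A level (14.1 to 32.5), again with counting error only.

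For UGT2B15 none of these differences passed the test as set. The log2 fold change was -2.64 ± 0.53 in C4K13A against parental (adjusted p = 0.0822, edgeR's test), 1.78 ± 0.54 in C5K13A against parental (adjusted p = 0.579) and 4.41 ± 0.59 in C5K13A against C4K13A (adjusted p = 0.0624). These p-values lie close to the threshold in the first and the last comparison, and other settings put them on its other side. In C4K13A against parental the adjusted p was 0.0248 or 0.0424 with parental library 1 or 2 left out, 0.0229 without C4K13A library 1, 0.222 without C4K13A library 2, 0.121 without C5K13A and 8.19e-04 in DESeq2. In C5K13A against C4K13A, leaving out any 1 of the parental or C4K13A libraries gave an adjusted p between 0.00533 and 0.020.

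**Figure D2:**
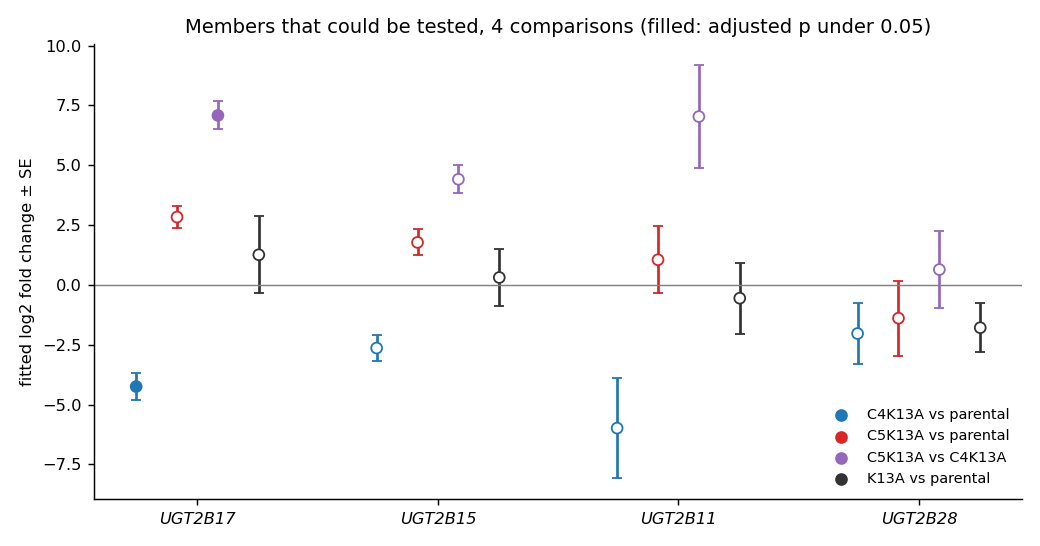
Fitted log2 fold changes (points) with their SE (bars) for the 4 members that could be tested, in 4 comparisons drawn in different colours; filled points have an adjusted p under 0.05. UGT2B17 is the gene with filled points, at -4.25 in C4K13A against parental and 7.08 in C5K13A against C4K13A; the UGT2B11 values depend on the prior count because C4K13A had 0 counts.

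Because reads may pass between these copies, UGT2B15 and UGT2B17 were also added. Their summed level was 2.04 and 3.26 CPM in the parental libraries, 0.439 and 0.210 CPM in clone C4K13A and 12.3 CPM in clone C5K13A. The summed pair was 7.81 times higher in parental cells than in C4K13A (5.38 to 11.7) and 4.70 times higher in C5K13A than in parental cells (4.07 to 5.45), by counting error only and with no test. The order of the groups therefore does not rest on how reads were shared between UGT2B15 and UGT2B17.

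The make-up of that sum also differed. UGT2B17 was 35.5% of the counts of both genes in parental library 1 (43 of 121, Wilson 95% interval 27.6% to 44.4%) and 30.7% in parental library 2 (51 of 166, 24.2% to 38.1%). In C5K13A it was 50.2% (261 of 520, 45.9% to 54.5%), above both parental intervals. In C4K13A it was 9.09% (2 of 22, 2.53% to 27.8%) and 22.2% (2 of 9, 6.32% to 54.7%), and the interval of the second library overlaps those of the parental libraries and of C5K13A. These intervals cover counting error only, and reads that match both genes were not separated here.

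**Figure D3:**
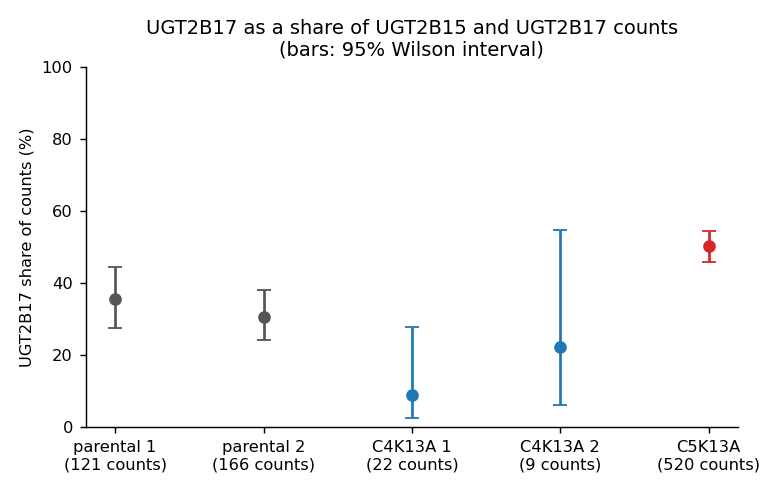
UGT2B17 counts as a percentage of UGT2B15 plus UGT2B17 counts in each library, with 95% Wilson intervals as bars and the summed count under each name. C5K13A is at 50.2% and the parental libraries at 35.5% and 30.7%; the C4K13A intervals are wide because they rest on 22 and 9 counts.

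UGT2B28, a close relative that also accepts androgens, did not follow that order. It had 19 and 22 counts in parental cells, 0 and 8 in C4K13A and 6 in C5K13A, or 0.320 and 0.433, 0 and 0.187, and 0.141 CPM. Every mutant library lay below both parental libraries, and the clones overlapped. How many of all genes have every mutant library below both parental ones was not counted. Pooled reads were 4.32 times higher in parental cells than in C4K13A (2.00 to 10.7) and 2.63 times higher than in C5K13A (1.11 to 7.59). The log2 fold change was -2.03 ± 1.28 in C4K13A (adjusted p = 0.582), -1.39 ± 1.57 in C5K13A (adjusted p = 0.896) and -1.79 ± 1.02 in all K13A libraries (adjusted p = 0.561), and none passed edgeR's test. The C4K13A value was -0.99 without C4K13A library 1 and -7.26 without library 2, which holds all 8 of that clone's reads, so that this last value depends on the prior count.

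UGT2B11, whose substrates are less well defined, was 97.0% identical to UGT2B28 and had another pattern. Its counts were 14 and 4 in parental cells, 0 and 0 in C4K13A and 14 in C5K13A, or 0.236, 0.0786, 0, 0 and 0.330 CPM. With 3 counts over the group as the limit that a count of 0 allows, C4K13A was at least 5.06-fold lower than parental cells and at least 10.2-fold lower than C5K13A. C5K13A was 2.02 times the parental level (0.930 to 4.30). The adjusted p was 0.316 in C4K13A against parental and 0.655 in C5K13A against C4K13A by edgeR's test, and DESeq2 gave none for the gene.

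The remaining members were at or near 0. UGT2B10 had 2 and 0 counts in parental cells, 0 and 0 in C4K13A and 4 in C5K13A. Its C5K13A level was 5.19 times the parental level, with an interval of 0.744 to 57.4 that includes no difference. UGT2B7, the broad-range liver and kidney enzyme, had 1 read in parental library 1 and 1 in C5K13A. UGT2B4, a bile acid enzyme of the liver, had 0 counts in all 5 libraries. Added up, UGT2B10, UGT2B11 and UGT2B28 were at 0.589 and 0.511 CPM in the parental libraries, 0 and 0.187 CPM in clone C4K13A and 0.565 CPM in clone C5K13A. This sum was 6.43 times higher in parental cells than in C4K13A (3.07 to 15.6), while C5K13A was 1.02 times the parental level (0.609 to 1.66). All 7 members together gave 157 and 192 counts in parental cells, 22 and 17 in C4K13A and 545 in C5K13A.

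When both clones were pooled as K13A and set against parental cells, the opposite levels met in 1 mean. UGT2B17 was at 2.08 ± 3.52 CPM in the K13A libraries (SD, n = 3) and 0.863 ± 0.197 CPM in parental cells (n = 2), and UGT2B15 at 2.22 ± 3.36 and 1.79 ± 0.670 CPM. Each SD of the mutant group exceeded its mean. The 3 mutant libraries are 2 of clone C4K13A and 1 of clone C5K13A. This SD and the 2-group test thus treat libraries of 1 clone as separate and weigh C4K13A more. Log2 fold changes were 1.26 ± 1.62 for UGT2B17 (adjusted p = 0.816), 0.31 ± 1.20 for UGT2B15 (adjusted p = 0.95) and -0.55 ± 1.49 for UGT2B11 (adjusted p = 0.922) by edgeR's test. Of the 4 members tested 0 were called, 0 had an unadjusted p under 0.05 and DESeq2 called 0, where edgeR called 0.203% of all 20649 genes tested, 0.0145% as higher and 0.189% as lower. The C5K13A library sets the sign: without it the values were -4.25 for UGT2B17 and -2.64 for UGT2B15, and the 3-group fit, which weighs the clones equally, gave -0.70 and -0.43. The median log2 fold change of the 4 members was -0.12, against -3.44 in C4K13A, 1.41 in C5K13A and 5.72 for C5K13A against C4K13A, where the median of all genes tested was -0.0047, -0.0123, -0.0341 and -0.0264. The 4 include UGT2B11, whose fitted value is no bound.

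**Figure D4:**
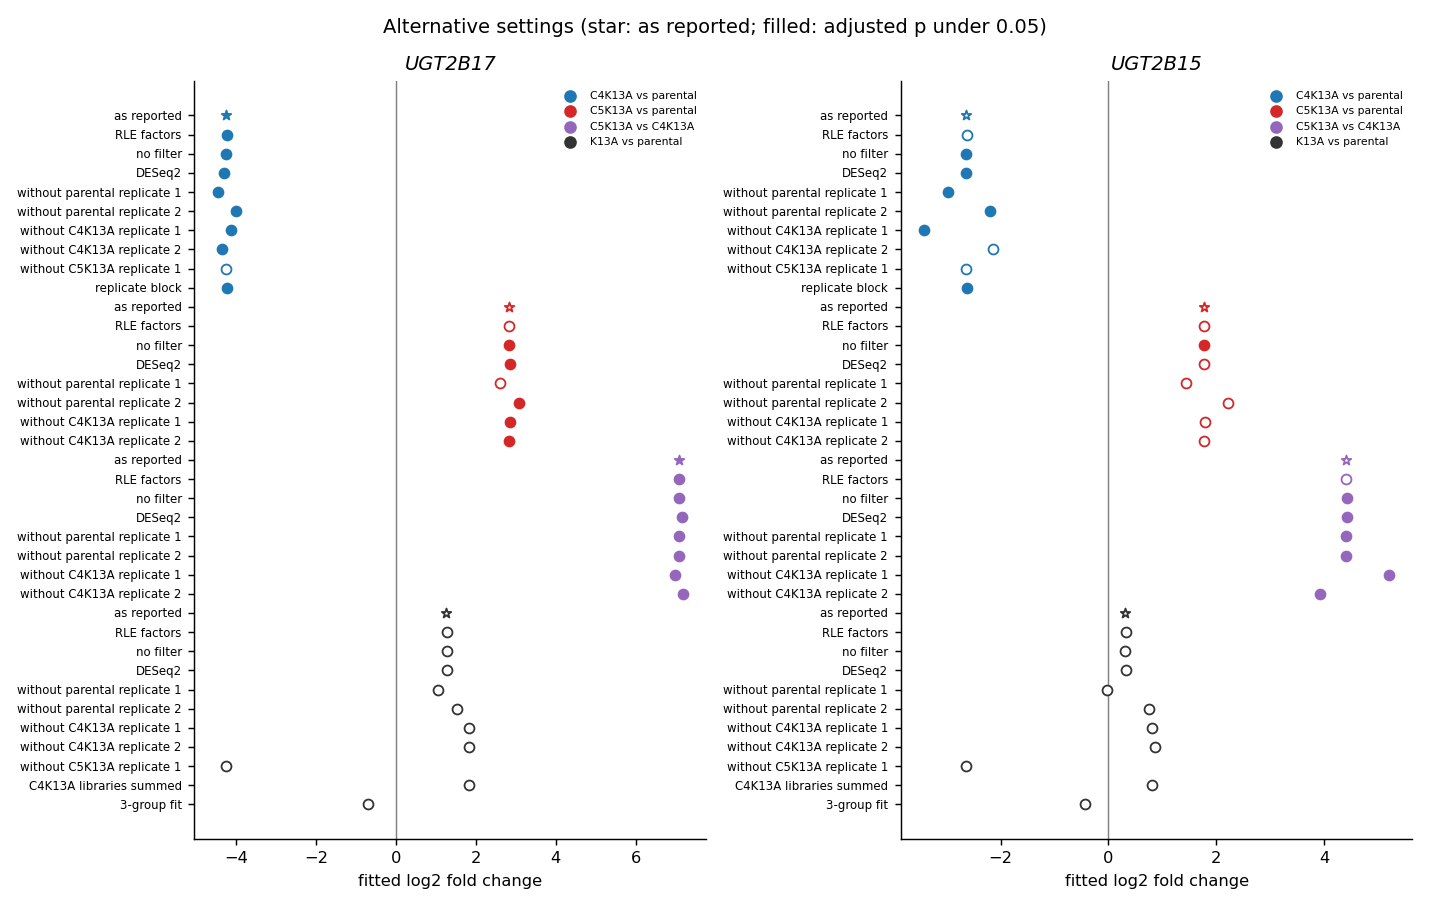
Fitted log2 fold changes of UGT2B17 (left) and UGT2B15 (right) under each alternative setting, coloured by comparison; stars mark the values as reported, and filled symbols an adjusted p under 0.05. The sign is the same under every setting drawn for the comparisons of single clones, while for all K13A libraries it turns without C5K13A (-4.25 and -2.64).

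Genes that make, carry or use the glucuronic acid donor were measured next, in a list that also holds GUSB, which is not a step of that route. All 6 of this list could be tested, and 1 was called in 1 comparison, C4K13A against parental, where 0.699% of all genes were called. PGM1, which links glucose 6-phosphate and glucose 1-phosphate at the head of the route to UDP-glucose, was lower in C4K13A: 37.96 and 40.69 CPM in the parental libraries, 14.95 and 13.73 CPM in clone C4K13A and 27.0 CPM in clone C5K13A. Its log2 fold change there was -1.46 ± 0.18 (adjusted p = 0.0175 in edgeR's test, 0.0736 without C4K13A library 2). SLC35D1, the carrier that brings UDP-glucuronic acid into the endoplasmic reticulum, was at 0.354 and 0.786 CPM in parental cells, 2.03 and 2.10 CPM in clone C4K13A and 1.58 CPM in clone C5K13A, and did not pass (adjusted p = 0.233 for all K13A libraries). UGDH, which oxidises UDP-glucose to UDP-glucuronic acid, was at 30.7 to 56.4 CPM, UGP2, which makes UDP-glucose, at 21.9 to 27.4 CPM, and GUSB, the lysosomal glucuronidase, at 69.6 to 100.8 CPM. The genes of the donor's route were thus expressed in all 5 libraries. The list's median log2 fold change, with GUSB included, was 0.35 in C4K13A and 0.25 in C5K13A.

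Of 15 other UDP-glycosyltransferase genes only UGT8 could be tested. UGT8, which adds galactose to ceramide, was at 12.3 and 18.5 CPM in parental cells, 11.9 and 15.0 CPM in clone C4K13A and 29.7 CPM in clone C5K13A, and was not called (0.95 on the log2 scale in C5K13A against parental, adjusted p = 0.622). None of the other 14, the UGT1A genes among them, had more than 10 counts over the 5 libraries. By assigned counts UGT2B15 and UGT2B17 were thus the best-covered steroid-type transferases here. The handling of reads that overlap several genes is not given, so these low counts need not mean low expression.

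Other lists bear on steroid handling, and 0 of their members were called by edgeR in any of the 4 comparisons. Over all genes tested, the share called was 0.0484% to 0.699% by comparison, so 0 calls in short lists is near that share. Of 7 sulfation genes 5 could be tested. The steroid sulfatase STS was at 21.6 and 22.3 CPM in parental cells, 24.7 and 31.7 CPM in clone C4K13A and 33.2 CPM in clone C5K13A (adjusted p = 0.431 for all K13A libraries), and SULT2B1, which sulfates cholesterol and other hydroxysteroids, at 2.87 to 6.43 CPM. Of 18 genes of androgen synthesis and conversion 7 could be tested. HSD3B1, which carries out a step from dehydroepiandrosterone towards active androgens, was at 0.118 and 0.629 CPM in parental cells, 1.04 and 3.29 CPM in clone C4K13A and 4.80 CPM in clone C5K13A (log2 fold change for all K13A libraries 3.04 ± 0.84, adjusted p = 0.260). All 5 genes of conjugate efflux were tested. ABCC4, a pump for steroid conjugates, was at 277.3 and 164.3 CPM in parental cells, 189.1 and 113.5 CPM in clone C4K13A and 73.4 CPM in clone C5K13A (adjusted p = 0.462 for C5K13A against parental).

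Known regulators of UGT2B genes were listed too, and 12 of 17 could be tested in the 2-group fit and 13 in the 3-group fit. Of these 0 were called, which is near the 0.0484% to 0.699% called over all genes by comparison. The forkhead factor FOXA1 was at 480.2 to 652.1 CPM. NR1H2, the liver X receptor beta, was at 85.3 and 80.1 CPM in parental cells, 54.9 and 61.9 CPM in clone C4K13A and 79.2 CPM in clone C5K13A (adjusted p = 0.293 in C4K13A against parental). HNF4A, a liver and gut factor, had 0 counts in both C4K13A libraries and at most 0.236 CPM elsewhere.

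Genes that androgen raises or lowers were listed because UGT2B15 and UGT2B17 belong to the androgen-lowered kind. All 10 androgen-raised genes could be tested, and 1 was called in 1 comparison, C4K13A against parental, where 0.699% of all genes were called. FKBP5, a chaperone partner of steroid receptors, was higher in C4K13A (156.8 and 219.4 CPM in parental cells, 531 and 452.8 CPM in C4K13A, 270.9 CPM in C5K13A; log2 fold change 1.39 ± 0.22, adjusted p = 0.0421). That call was lost without C4K13A library 1 (0.0836), without C5K13A (0.0526) and with a filter at 5 CPM (0.0746). The prostate-specific antigen gene KLK3 lay within the parental range in all 3 mutant libraries (2631, 2657 and 2286 CPM against 3100 and 1858 CPM). The related protease KLK2 was at 510.7 and 297.8 CPM in parental cells, 438.1 and 309.4 CPM in clone C4K13A and 114.5 CPM in clone C5K13A (adjusted p = 0.289 for C5K13A against parental). In C5K13A against C4K13A the fitted value was below 0 for 10 of 10 genes with a median of -0.87. Of these 0 were called, against 0.066% of all genes.

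Of 6 other androgen-lowered genes 3 could be tested in the 2-group fit and 4 in the 3-group fit, and 0 were called. That is near the 0.0484% to 0.699% called over all genes by comparison. In C5K13A against C4K13A, 0 of 4 fitted values were above 0 and their median was -1.43. The values were -0.16 ± 0.64 for ACKR3, -0.80 ± 2.67 for OPRK1, -2.06 ± 1.14 for MET and -3.66 ± 1.37 for CCN3, whose fitted value against parental was 1.75 in C4K13A and -1.91 in C5K13A. How these genes differ from UGT2B15 and UGT2B17 was not tested. ACKR3, a chemokine scavenger receptor, was at 119.2 and 43.1 CPM in parental cells, 23.7 and 9.20 CPM in clone C4K13A and 14.7 CPM in clone C5K13A (adjusted p = 0.147 for all K13A libraries). The receptor kinase gene MET was at 0.539 and 1.22 CPM in parental cells, 0.179 and 0.233 CPM in clone C4K13A and 0.0471 CPM in clone C5K13A (adjusted p = 0.265). Androgen levels were not measured.

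**Figure D5:**
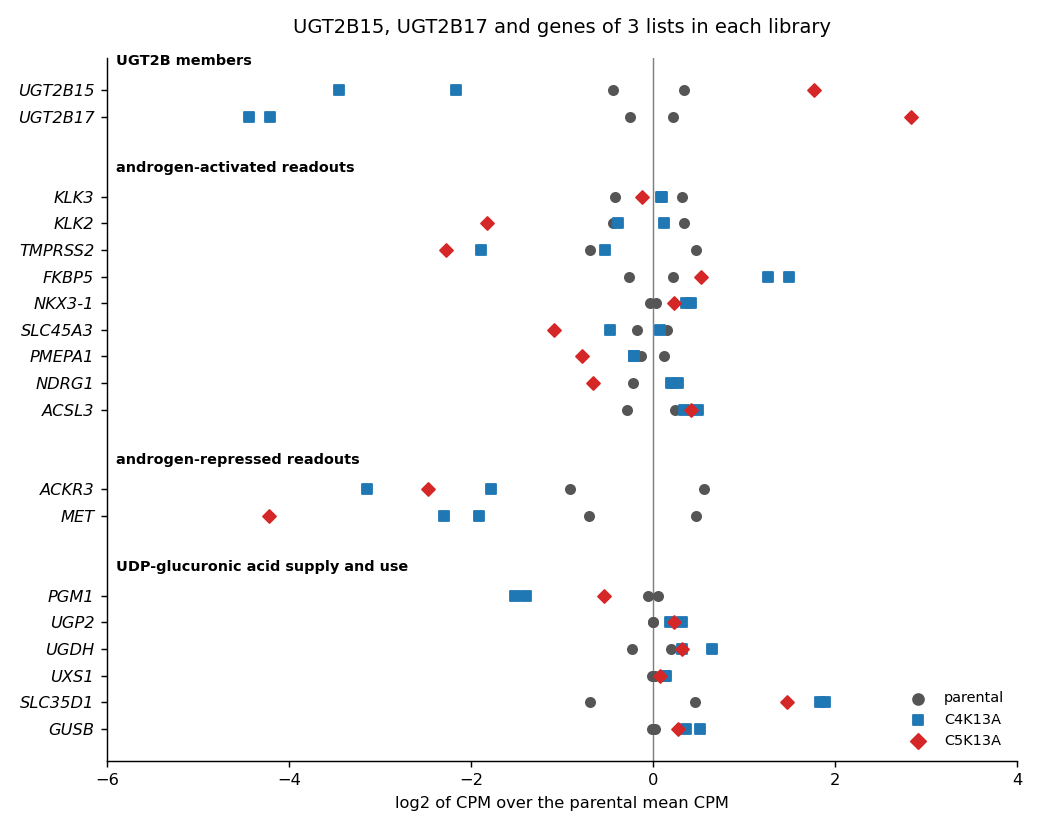
Each library's CPM over the parental mean CPM, on a log2 scale, for UGT2B15 and UGT2B17 and for the genes of 3 lists that had counts in all libraries and at least 1 CPM in 1 of them (circles parental, squares C4K13A, diamonds C5K13A). The UGT2B genes have squares far left and the diamond right of 0, while ACKR3 and MET have squares and diamond left of 0; of the listed genes outside the family, PGM1 and FKBP5 were called, in C4K13A against parental.

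The genes around the cluster were also read, and whether a change spans the region was not tested. Of 90 other genes in the span and up to 1 Mb outside it, 7 reached 1 CPM in a library: CENPC, UBA6, UBA6-DT, POLR2MP1, YTHDC1, MT2P1 and ODAM. All 7 lie outside the span of the members, and ODAM is the only one beyond the UGT2B4 end. No other gene between the members reached that level. None of the 7 was called in any of the 4 comparisons by edgeR, with adjusted p-values of 0.241 to 0.894 in C4K13A against parental. Over all genes tested, 0.203% were called for all K13A libraries and 0.699% in C4K13A against parental. The share was 0.0484% in C5K13A against parental and 0.066% between the clones, so 0 of 7 is near the share over all genes. YTHDC1, an RNA-methylation reader on the UGT2B17 side of the cluster, was at 47.6 to 57.6 CPM in all libraries, and UBA6, a ubiquitin-activating enzyme, at 31.7 to 36.3 CPM. ODAM, an enamel-matrix gene beyond the UGT2B4 end, was at 0.371 and 1.93 CPM in parental cells, 3.45 and 7.52 CPM in clone C4K13A and 3.11 CPM in clone C5K13A (adjusted p = 0.344 for all K13A libraries).

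UGT2B genes are typical of liver and gut cells, and markers of those cells were therefore read in the same libraries. Of 9 hepatocyte markers 6 stayed under 1 CPM in every library, albumin (ALB) at 0.185 CPM or less. Their sum was 5.39 and 12.1 CPM in parental cells, 13.8 and 78.7 CPM in clone C4K13A and 68.0 CPM in clone C5K13A, and most of it came from the thyroid hormone carrier TTR (1.60, 8.95, 11.4, 75.9 and 61.6 CPM in the same order). The sum was high in C4K13A library 2 and in C5K13A. CYP2E1 of the same list had the order of levels of UGT2B15, at 1.57 and 1.71 CPM in parental cells, 0.758 and 1.12 CPM in clone C4K13A and 3.84 CPM in clone C5K13A (log2 difference between the clones 2.04 ± 0.45, adjusted p = 0.304). APOA1 was at 2.00 CPM in C5K13A and at 0.963 to 1.21 CPM elsewhere. Of 6 enterocyte markers 5 stayed under 1 CPM, APOA4 was at 0, and the sum was 0.718 to 1.57 CPM. The part of these levels, and of the ribosomal RNA differences, in the UGT2B results was not tested.

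The genes whose pattern over the 5 libraries was most like that of UGT2B15 and UGT2B17 were looked for by the root mean square difference of centred log2 CPM among 10262 protein-coding genes with a mean of at least 5 CPM. For UGT2B15 they were HS3ST3B1, a heparan sulfate sulfotransferase (0.46), PHLDA1 (0.51) and the nuclear receptor gene PPARG (0.55). HS3ST3B1 was at 7.07 and 13.0 CPM in parental cells, 1.57 and 0.981 CPM in clone C4K13A and 14.6 CPM in clone C5K13A. PPARG was at 8.07 and 18.4 CPM in parental cells, 1.87 and 2.22 CPM in clone C4K13A and 24.0 CPM in clone C5K13A. For UGT2B17 they were the kinase gene DAPK1 (0.88), PPARG (1.00) and HS3ST3B1 (1.04), and the distance between UGT2B15 and UGT2B17 themselves was 0.79. DAPK1 was at 11.5 and 22.2 CPM in parental cells, 0.917 and 3.57 CPM in clone C4K13A and 40.3 CPM in clone C5K13A. These genes were chosen for their likeness, so their levels are a description.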

How the data were processed

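RNA from 5 libraries of human C4-2B cells was measured by RNA sequencing. Per the labels' protocols, total RNA went through DNase I and RiboErase depletion before Illumina HiSeq sequencing. Tools named in the submitters' processing notes are bcl2fastq, STAR 2.5 and, from Subread, featureCounts 1.4.6-p5. Build, annotation, strand setting and multi-mapping were not given in the sources used here. Deposited by the authors were raw counts of reads per gene.

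Groups and replicate numbers come from the sample titles. Symbols and positions were taken by Ensembl ID from GENCODE v29 (55297 of 58812 IDs matched), which may differ from the authors' annotation. Counts were analysed with edgeR 4.0.16 in R 4.3.3 (filterByExpr, TMM, glmQLFit, glmQLFTest, Benjamini-Hochberg over all genes, threshold 0.05). K13A against parental used 2 groups (3 residual degrees of freedom). Single clones were compared in a 3-group fit (2 residual degrees of freedom), and C5K13A against C4K13A and both clones against parental share libraries. The SE is the log2 fold change over the root of the F statistic. Ratios of pooled reads carry exact binomial intervals, floors are 3 counts over a group, and both cover counting error only, since no molecular identifiers are described and reads need not be independent molecules. Promoters came from RefSeq; coding sequences from GENCODE v29 were aligned with Biopython 1.88.

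The members, lists and rules were chosen with earlier results of these data known. Named are all members, the called genes of each list (otherwise up to 2 with the smallest adjusted p), neighbours at 1 CPM or more within 1 Mb, and the 3 genes nearest in pattern to UGT2B15 and UGT2B17; further listed genes were named after their values were seen. Alternatives were RLE factors, no filter, a 5 CPM filter, DESeq2 1.42.0, summed C4K13A libraries, a 3-group fit, a replicate block and leaving out each library. Some genes and motifs of these lists are not reported here.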

Additional observations from a re-analysis of the deposited data

Results flagged for a closer look

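UGT2B17 was below both parental libraries in both C4K13A libraries and above them in C5K13A, with a difference between the clones of 7.08 on the log2 scale (edgeR's adjusted p = 0.0246). C5K13A against parental did not itself pass (adjusted p = 0.130). UGT2B15 had the same opposite directions in every library, with a difference of 4.41 and an adjusted p of 0.0624, which misses the threshold. UGT2B11 was at 0 in both C4K13A libraries and above both parental libraries in C5K13A, with a fitted difference of 7.03 that depends on the prior count (adjusted p = 0.655). Both clones were compared with the same 2 parental libraries, and C5K13A is a single library.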

How the results depend on the processing

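UGT2B17 was called lower in C4K13A than in parental cells in 8 of 9 alternatives, and C5K13A against C4K13A in 7 of 7 (highest adjusted p 0.0203); higher in C5K13A than in parental cells it was in 5 of 7. UGT2B15 passed in 6 of 9, in 1 of 7 (C5K13A against parental, no filter, 0.0300) and in 6 of 7, with a log2 fold change of -3.43 to -2.15 in C4K13A against parental over the alternatives. Members called in C4K13A against parental (1 as reported) were 2 with no filter, in DESeq2 and with the replicate block, and 0 to 2 with a library left out. In C5K13A against parental (0) they were 2 with no filter, 1 in DESeq2 and 0 to 1 with a library left out, and in C5K13A against C4K13A (1) 2 with no filter, 2 in DESeq2 and 2 with any library left out. For all K13A libraries, values that turned sign were -4.25 (UGT2B17) and -2.64 (UGT2B15) without C5K13A, -0.70 and -0.43 in the 3-group fit, -0.03 for UGT2B15 without parental library 1, and 0.45, 0.04 and 0.02 for UGT2B11 without parental library 1, C4K13A library 1 and C4K13A library 2. UGT2B28 turned to -0.39 in C5K13A against C4K13A without C4K13A library 1. With any library left out, the ranges for all K13A libraries were -4.25 to 1.84 (UGT2B17), -2.64 to 0.86 (UGT2B15) and -1.11 to 0.45 (UGT2B11), and for UGT2B28 in C5K13A against C4K13A -0.39 to 5.87. The cause was not tested.

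Genes called over all genes moved more. For all K13A libraries (42 as reported) they were 1167 with no filter, 2 at 5 CPM, 555 in DESeq2, 11 with summed C4K13A libraries, 105 in the 3-group fit and 0 to 130 with a library left out: without parental library 1 it was 0 (1194 at an unadjusted p under 0.05) and without parental library 2 it was 26, with 15 and 6 when C4K13A library 1 or 2 was left out and 130 without C5K13A. For C4K13A (159) they were 1346, 50 and 745, and 130 to 1667, the highest without parental library 2. For C5K13A (11) they were 578, 0 (649 at an unadjusted p under 0.05) and 235, and 41 to 668, the highest without parental library 2. For C5K13A against C4K13A (15) they were 423, 0 (793 at an unadjusted p under 0.05) and 182, and 51 to 155. The 5 CPM filter left no member to test.

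The replicate block, with parental and C4K13A libraries only (1 residual degree of freedom), called 885 genes, and gave UGT2B17 -4.23 (adjusted p = 0.00886) and UGT2B15 an adjusted p of 0.0214. Deviations of same-numbered libraries correlated at 0.196 over 20649 genes. The labels give no shared culture or day behind the numbers, so the pairing was not used, and the title of C5K13A carries no number. Depth limits UGT2B10, UGT2B7 and UGT2B4 (6, 2 and 0 counts in all), and C4K13A values of UGT2B17 and UGT2B11 rest on 4 and 0 counts.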

Other observations

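UGT2 and SULT1 genes other than the members, within the cluster or up to 1 Mb outside it, had almost no assigned counts. The same limit on reads that overlap several genes holds for them. The genes UGT2A1, UGT2A2 and the estrogen sulfotransferase gene SULT1E1 had 0 counts in all 5 libraries. The pseudogene UGT2B27P had 6 counts, all in parental library 2, and UGT2B24P had 1 count there. SULT1B1, a thyroid hormone sulfotransferase, had 2 counts in parental library 2 and 2 in C4K13A library 2. Of the family's closest intestinal relative, UGT2A3, 1 read was counted, in C4K13A library 2.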
